A study of Mus musculus with 24 samples.

Results

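Pou5f1, Nanog, Sox2, Sall4 and Utf1, 5 of the 22609 genes counted, were followed by their symbols through 24 poly(A) RNA-seq libraries of mouse embryonic stem cells (mESCs), in 8 groups of 3 libraries. Pou5f1 encodes OCT4, a POU-domain factor that sets the pluripotent state. Together with the HMG-box factor SOX2 it binds neighbouring octamer and SOX letters in enhancers and promoters of stem cell genes. NANOG is a homeodomain factor that stabilises self-renewal, and SALL4 is a zinc-finger factor that binds with OCT4 and NANOG and recruits the NuRD deacetylase complex. Utf1 encodes a chromatin-associated protein, and its enhancer is a classical OCT4-SOX2 target. When mESCs are moved from leukaemia inhibitory factor (LIF) to retinoic acid (RA) the pluripotency network is known to be dismantled, its members at different speeds.

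All libraries came from E14TG2a cells, a feeder-free, blastocyst-derived line of the 129/Ola strain, grown with serum. In the 3 RA groups LIF had been withdrawn and all-trans RA added at 1e-06 M, with 24 h in the sample names, to cells carrying a hairpin against Med12 (RA shMed12), a hairpin against Cdk8 (RA shCdk8) or a hairpin with no mammalian target (RA shNMC). The 5 mESC groups were kept in LIF and were cells with the hairpins against Med12 (shMed12), Cdk8 (shCdk8) or Ring1b (shRing1b, the gene Rnf2), cells with shNMC, and cells with no hairpin (untransfected). MED12 and CDK8 belong to the kinase module of the Mediator complex, and RING1B is the ubiquitin ligase of Polycomb repressive complex 1. The hairpins were stably integrated; the labels do not say how many hairpin sequences or clones stand behind a group, or whether the 3 libraries of a group came from separate cultures. The p-values therefore measure the spread between these libraries, which may be technical. RA and LIF withdrawal came together in every RA group, so their effects cannot be told apart, and in bulk RNA fewer cells that express a gene and less of its RNA per cell cannot be told apart either.

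Libraries held 27.4 M to 57.3 M reads assigned to genes. The untransfected and shRing1b libraries, 6 in all, had 20 to 21.7% of their entries set aside as multiple alignments, and the other 18 had 44.1 to 49.1%, so that shRing1b against untransfected lies within the first set and shNMC against untransfected crosses the sets. Levels are given as CPM, the counts scaled to a common library size. Med12 stood at 48.5 ± 11.5 CPM in RA shMed12 and 119 ± 24.9 in RA shNMC, and 41.7 ± 5.76 in shMed12 and 133 ± 5.48 in shNMC (SD, n = 3 each). Cdk8 stood at 9.9 ± 2.24 CPM in RA shCdk8 and 45.6 ± 2.74 in RA shNMC, and at 12.8 ± 2.26 in shCdk8 and 53.4 ± 3.06 in shNMC (SD, n = 3 each). Rnf2 had 52.4, 64.2 and 207 CPM in the shRing1b libraries, against 221, 303 and 262 CPM in the untransfected libraries. Replicate 3 of shRing1b, by its label a knockdown, thus lay close to the untransfected range, and each shRing1b result for the 5 genes is given with and without it. The 7 mESC markers fixed for the label check (Zfp42, Esrrb, Dppa5a, Tdgf1, Fgf4, Dppa3 and Tcl1) summed to at most 1911 CPM in every RA library and to at least 2406 CPM in every mESC library, and none of them was at 0 in a group.

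Upstream windows of 250 bases, read from RefSeq on GRCm38.p6 (the counts themselves were made on mm9), are shown here because the factors made by these genes bind their own and each other's promoters. Sall4 had no entry. Capitals mark matches, on either strand, to the 4 letter strings searched: the octamer-SOX composite (CATTGT, then any base, then ATGCAAA), the octamer core ATGCAAA, the SOX core CATTGT and AGGTCA, the half-site of RA and other nuclear receptors. The composite contains the octamer and SOX strings, so its match also matches both.

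Nanog, chr6:122707239-122707488, + strand: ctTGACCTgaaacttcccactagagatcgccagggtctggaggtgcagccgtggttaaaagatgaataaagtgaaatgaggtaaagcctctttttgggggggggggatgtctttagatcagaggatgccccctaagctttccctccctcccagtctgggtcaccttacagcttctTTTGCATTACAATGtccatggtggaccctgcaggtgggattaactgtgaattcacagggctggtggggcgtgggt
Sox2, chr3:34649745-34649994, + strand: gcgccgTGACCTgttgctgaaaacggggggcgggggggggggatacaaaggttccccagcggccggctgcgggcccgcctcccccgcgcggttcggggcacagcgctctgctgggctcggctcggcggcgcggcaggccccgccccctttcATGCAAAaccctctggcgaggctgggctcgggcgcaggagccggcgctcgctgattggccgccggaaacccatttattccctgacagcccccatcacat
Pou5f1, chr17:35505782-35506031, + strand: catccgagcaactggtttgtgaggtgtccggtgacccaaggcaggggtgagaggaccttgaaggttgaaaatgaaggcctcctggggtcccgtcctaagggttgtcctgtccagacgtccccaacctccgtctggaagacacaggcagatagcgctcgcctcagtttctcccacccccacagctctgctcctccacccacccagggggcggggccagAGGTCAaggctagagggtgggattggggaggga
Utf1, chr7:139943606-139943855, + strand: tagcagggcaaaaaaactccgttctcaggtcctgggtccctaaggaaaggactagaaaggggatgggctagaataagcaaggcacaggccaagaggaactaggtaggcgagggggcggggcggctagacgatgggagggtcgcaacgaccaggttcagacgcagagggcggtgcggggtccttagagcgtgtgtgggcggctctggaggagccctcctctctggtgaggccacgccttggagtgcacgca

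Nanog carried the composite at bases -75 to -62 from its start, on the minus strand, and a half-site at -248 to -243. Across all 32851 mouse windows of this length the composite occurred in 2 (0.00609%), both of them windows of Nanog. Apart from its free base the string searched allows no variant letters, and these letters are those of the Nanog site. Other spellings of the composite were not counted, so the rarity of this string does not show that other promoters lack one. Sox2 had an octamer core at -99 to -93, a string found in 4.12% of windows, and a half-site at -244 to -239. Pou5f1 had a half-site at -33 to -28, as did 14% of windows somewhere in their length. The SOX core alone occurred in 10.7% of windows, and Utf1 held none of the 4 strings in this window. A match is a description of letters and says nothing of binding in these cells.

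All 5 genes were well counted, with the lowest library at 764 reads for Nanog and 927 for Utf1, and all 5 passed the filter on low counts. After RA in shNMC cells, levels per kilobase of exon were 325 CPM per kb for Pou5f1, 229 for Sox2, 43.3 for Sall4, 14.8 for Utf1 and 11 for Nanog. In shNMC cells kept in LIF they were 669 CPM per kb for Pou5f1, 391 for Sox2, 67.8 for Utf1, 57.9 for Sall4 and 27.8 for Nanog. Per length, Pou5f1 was thus the highest of the 5 and Nanog the lowest in both states, while Utf1 stood below Sall4 after RA and above it in LIF. The lengths are GENCODE M21 exon unions, which may differ from the gene models counted. Reads with several alignments were left out, so a gene with near-identical copies may rank too low.

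**Figure D1:**
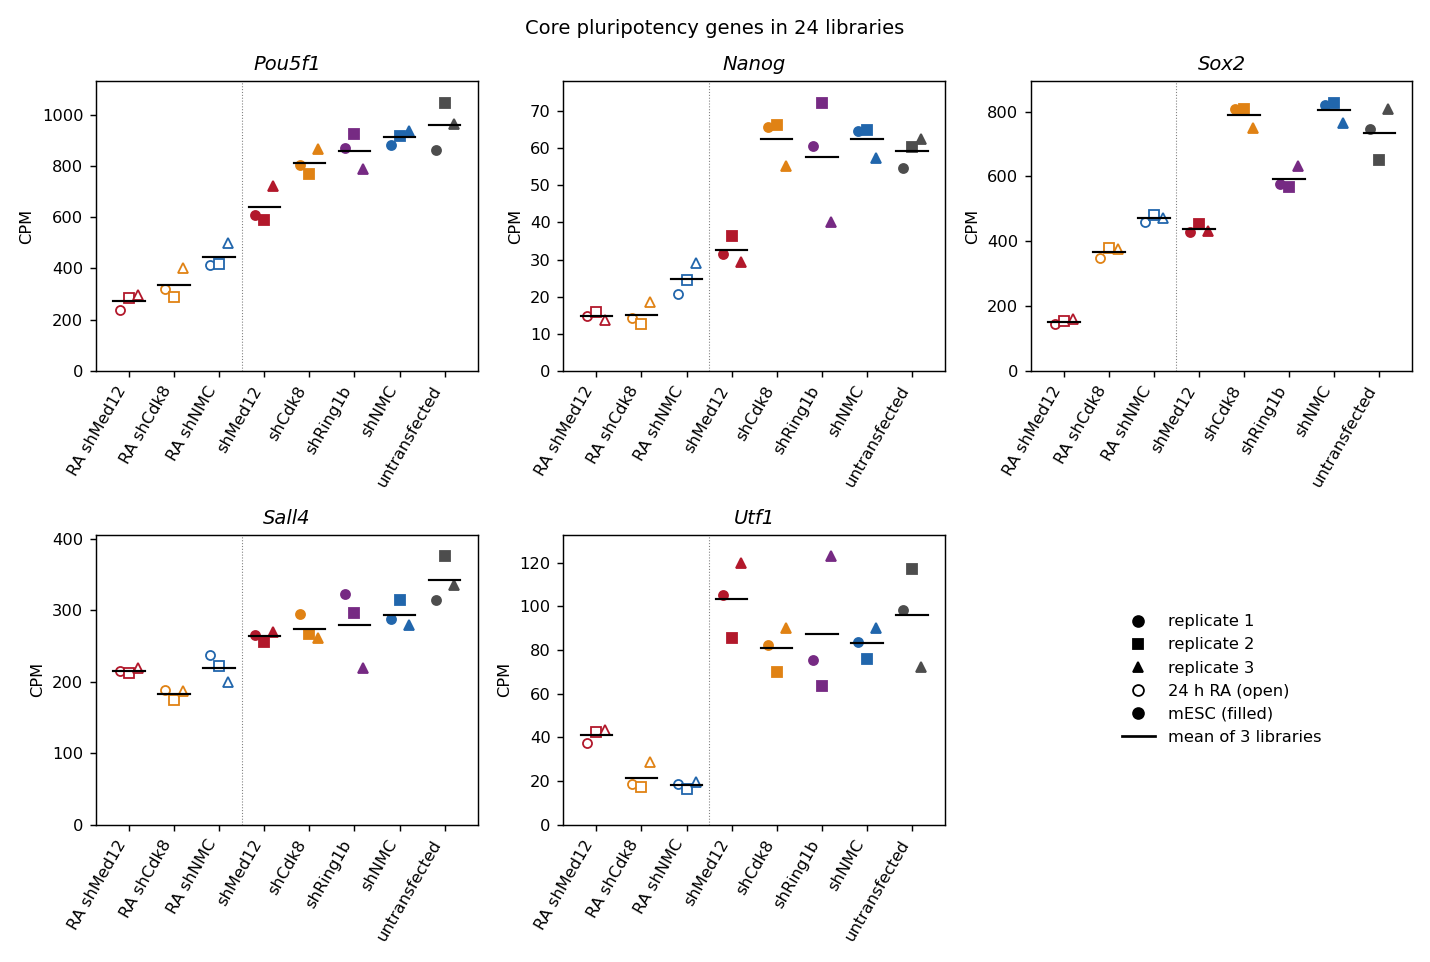
CPM (TMM-scaled, linear axes from 0) of the 5 genes in each of the 24 libraries, with open symbols for 24 h RA, filled symbols for mESCs, marker shape for replicate number and a line at the mean of 3 libraries. Pou5f1 and Nanog step down through shMed12 and the RA groups, Sox2 drops furthest in RA shMed12 (144 to 159 CPM), Sall4 stays between 175 and 376 CPM throughout, and Utf1 is lowest in RA shNMC (16.5 to 19.5 CPM).

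With RA and without LIF all 5 genes fell in cells with shNMC. This comparison shows the response of the line without a mammalian target being hit. Of all 16280 genes tested, 51.4% changed in this comparison (27.3% rose and 24.1% fell), so a called fall is not rare in itself. Ranked by log2 change, 0.59% of tested genes lay below Utf1, 2.3% below Nanog, 3.75% below Pou5f1, 7.06% below Sox2 and 18.6% below Sall4. The median log2 change of the 5 was -1.04, beside 0.022 over all genes tested.

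Pou5f1 had 412, 417 and 498 CPM in RA shNMC, against 881, 917 and 936 CPM in shNMC mESCs. The groups were far apart, and the log2 change was -1.04 (SE 0.12, edgeR adjusted p = 2.9e-07). Nanog had 20.6, 24.4 and 29.1 CPM in RA shNMC, against 64.7, 65.0 and 57.4 CPM in shNMC mESCs, a log2 change of -1.34 (SE 0.17, edgeR adjusted p = 1.3e-06). Every RA library was below every mESC library here too.

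Sox2, which is also a neural progenitor factor, had 459, 481 and 472 CPM in RA shNMC, against 821, 828 and 765 CPM in shNMC mESCs. Its log2 change of -0.77 (SE 0.08, edgeR adjusted p = 4.1e-08) was smaller than those of Pou5f1 and Nanog, and its RA shNMC libraries were the tightest of the 5 genes', with a coefficient of variation of 2.31%. Some markers of other cell types were called in the same comparison, where 51.4% of all tested genes were (27.3% rose and 24.1% fell). Of 6 early neural markers 3 rose and 1 fell, the one that fell being Ncam1, a neural cell adhesion molecule (log2 -0.67), and the summed level of the list was 87.4 to 101 CPM in RA shNMC and 93.7 to 100.2 CPM in shNMC mESCs. Of 9 trophectoderm markers 6 rose and 0 fell, with a sum of 36.0 to 49.1 CPM in RA shNMC and 20.7 to 25.3 CPM in shNMC mESCs. Of 6 primitive streak and mesoderm markers 3 rose and 0 fell, with a sum of 15.6 to 16.3 CPM in RA shNMC and 6.98 to 7.74 CPM in shNMC mESCs. Of 8 primitive and visceral endoderm markers 1 rose and 0 fell, with a sum of 59.8 to 81.2 CPM in RA shNMC and 37.9 to 51.6 CPM in shNMC mESCs. In shNMC mESCs 5 of the trophectoderm, 5 of the primitive streak and 3 of the endoderm markers averaged under 1 CPM. The part of these lists in the levels of the 5 genes was not tested.

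Sall4 had 238, 222 and 199.6 CPM in RA shNMC, against 288, 314 and 279.7 CPM in shNMC mESCs. The groups did not overlap, and Sall4 fell by 25.2%, the least of the 5 (log2 -0.42, SE 0.10, edgeR adjusted p = 0.0021). Utf1 had 18.4, 16.5 and 19.5 CPM in RA shNMC, against 83.8, 75.9 and 89.9 CPM in shNMC mESCs. This was the largest change of the 5: Utf1 fell by 78.2% (log2 -2.20, SE 0.22, edgeR adjusted p = 5.6e-08).

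The same 5 genes fell with RA in the knockdown cells, where 37.1% of tested genes changed in shMed12 cells (19.6% rose and 17.5% fell) and 51.7% in shCdk8 cells (26.7% rose and 25.1% fell). In shMed12 cells the log2 changes were -1.23 for Pou5f1, -1.13 for Nanog, -1.53 for Sox2, -0.29 for Sall4 and -1.33 for Utf1, with edgeR adjusted p-values from 3.1e-12 for Sox2 to 0.031 for Sall4. Sall4 rested on 215, 212 and 219 CPM in RA shMed12 and 265, 256 and 270.2 CPM in shMed12 mESCs; it lost its call without RA shMed12 replicate 2 or 3 or shMed12 replicate 1 or 3 (adjusted p up to 0.084). In shCdk8 cells the log2 changes were -1.27 for Pou5f1, -2.05 for Nanog, -1.1 for Sox2, -0.58 for Sall4 and -1.91 for Utf1, with adjusted p-values of 9e-05 or lower. In both knockdown lines every RA library lay below every mESC library for each of the 5 genes.

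Knockdown of Med12 in cells kept in LIF lowered the OCT4-SOX2-NANOG trio and left Sall4 and Utf1 without a call. Here 40.5% of tested genes changed, 20.6% rising and 19.9% falling; 3 of the 5 genes fell and 0 rose. The median log2 change of the 5 was -0.51, beside -0.013 over all genes tested.

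Sox2 had 430.0, 454 and 431 CPM in shMed12 mESCs, against 821, 828 and 765 CPM in shNMC mESCs. It fell by 45.5% (log2 -0.88, SE 0.08, edgeR adjusted p = 6.5e-09), and the mean of shMed12 cells in LIF (439 ± 13.6 CPM) lay below that of shNMC cells after RA (471 ± 10.9 CPM; SD, n = 3 each), with no overlap of libraries. Nanog had 31.6, 36.4 and 29.3 CPM in shMed12 mESCs, against 64.7, 65.0 and 57.4 CPM in shNMC mESCs, a level that fell by 48% (log2 -0.94, SE 0.17, edgeR adjusted p = 0.00011). Pou5f1 fell by 30%, with 607, 589 and 719.8 CPM in shMed12 mESCs and 881, 917 and 936 CPM in shNMC mESCs (log2 -0.51, SE 0.12, edgeR adjusted p = 0.0013).

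Sall4 stood at 264 ± 7.11 CPM in shMed12 mESCs and 294 ± 17.8 CPM in shNMC mESCs (SD, n = 3 each), a log2 difference of -0.16 (SE 0.10) that did not pass (edgeR adjusted p = 0.25). Utf1 had 105, 85.7 and 119.8 CPM in shMed12 mESCs, against 83.8, 75.9 and 89.9 CPM in shNMC mESCs. The groups overlapped, and its log2 difference of 0.32 (SE 0.21) did not pass (edgeR adjusted p = 0.24), although it did when only these 2 groups were fitted (adjusted p = 0.022).

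After RA, Med12 knockdown left the trio lower than in shNMC cells and Utf1 higher. The RA and knockdown comparisons share the shNMC libraries they are set against. In this comparison 41.9% of tested genes changed, 20.6% falling and 21.3% rising; 3 of the 5 genes fell, 1 rose and Sall4 did not pass. Sox2 had 144, 153 and 159 CPM in RA shMed12, against 459, 481 and 472 CPM in RA shNMC, so that it fell by 67.6% (log2 -1.63, SE 0.08, edgeR adjusted p = 2.8e-12). Only 3.42% of tested genes had a lower log2 change. Pou5f1 had 237, 283 and 297 CPM in RA shMed12, against 412, 417 and 498 CPM in RA shNMC (log2 -0.70, SE 0.12, edgeR adjusted p = 5.7e-05).

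Nanog had 14.9, 15.8 and 13.7 CPM in RA shMed12, against 20.6, 24.4 and 29.1 CPM in RA shNMC (log2 -0.74, SE 0.17, edgeR adjusted p = 0.0013). Utf1 had 37.3, 42.6 and 43.4 CPM in RA shMed12, against 18.4, 16.5 and 19.5 CPM in RA shNMC. Its level was 2.27-fold higher (log2 1.18, SE 0.21, edgeR adjusted p = 0.00014), the reverse of the direction of Pou5f1, Nanog and Sox2 in the same libraries. Sall4, at 215 ± 3.58 CPM in RA shMed12 and 219.8 ± 19.3 CPM in RA shNMC (SD, n = 3 each), gave a log2 difference of -0.03 (SE 0.10, edgeR adjusted p = 0.84).

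The change with RA was compared directly between shMed12 and shNMC cells with an interaction term. Of tested genes 5.04% passed it (1.74% with a positive and 3.3% with a negative sign). Sox2 was the member that passed: its RA response was more negative in shMed12 cells by 0.75 on the log2 scale (interaction -0.75, SE 0.11, edgeR adjusted p = 0.00019). Med12 knockdown in LIF left 54.5% of the shNMC mESC level of Sox2, RA in shNMC cells left 58.5%, and the combination left 18.9%. Utf1 had the opposite sign, an interaction of 0.86 (SE 0.30) that missed the threshold (edgeR adjusted p = 0.1; 0.0027 when only the 4 groups were fitted). Those of Pou5f1 (-0.19), Nanog (0.20) and Sall4 (0.13) did not pass either.

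**Figure D2:**
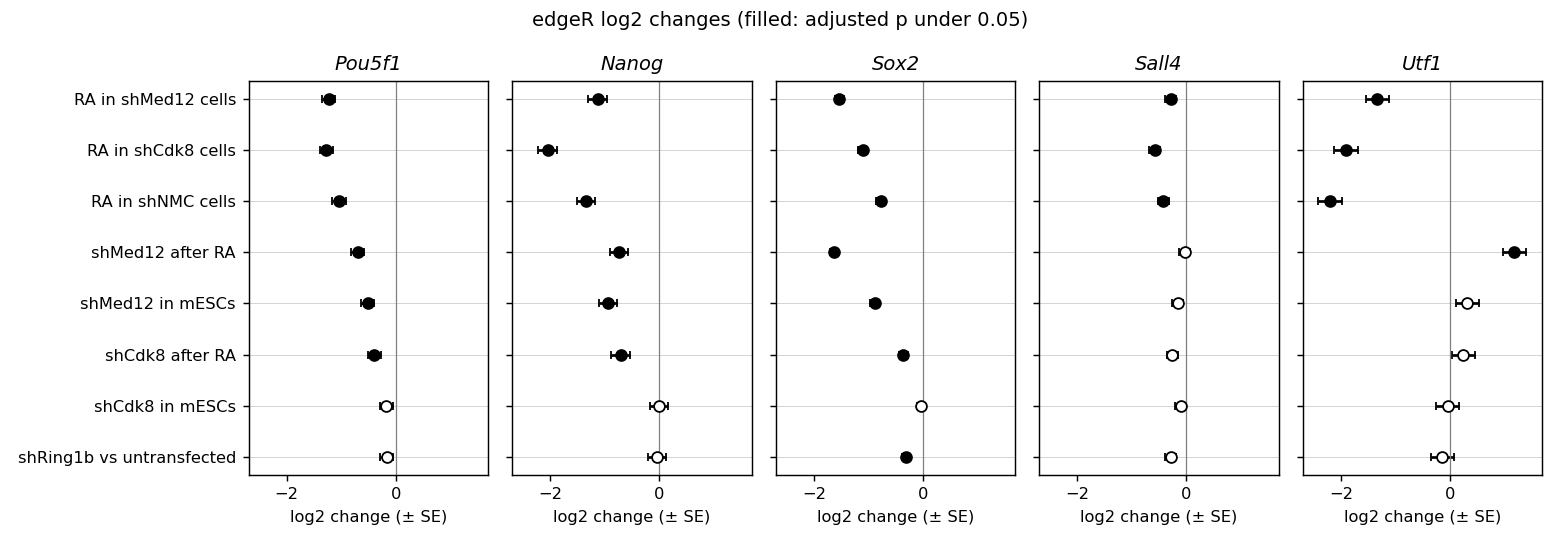
Log2 change (x axis, edgeR estimate with SE as bar) of each gene in 8 comparisons (rows), filled where the adjusted p was under 0.05. The 3 RA rows are filled for every gene, Sox2 in shMed12 after RA sits at -1.63, and Utf1 in the same row is the filled point to the right of 0 (1.18).

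Cdk8 knockdown in LIF gave no call for any of the 5 genes, in a comparison where 3.66% of tested genes changed (2.24% rose and 1.42% fell). The log2 differences were -0.17 for Pou5f1, 0.00 for Nanog, -0.03 for Sox2, -0.10 for Sall4 and -0.04 for Utf1, with SEs of 0.08 to 0.21 and edgeR adjusted p-values of 0.48 or higher; none had an unadjusted p under 0.05, and DESeq2 called none. Nanog illustrates the overlap, with 65.8, 66.2 and 55.3 CPM in shCdk8 mESCs and 64.7, 65.0 and 57.4 CPM in shNMC mESCs. Pou5f1 was the one gene whose libraries did not overlap, at 802, 768 and 866 CPM in shCdk8 mESCs and 881, 917 and 936 CPM in shNMC mESCs.

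After RA the trio was lower with shCdk8 than with shNMC; 7.73% of tested genes changed here (4.1% rose and 3.64% fell). Sox2 had 348, 378 and 377 CPM in RA shCdk8, against 459, 481 and 472 CPM in RA shNMC, and fell by 21.9% (log2 -0.36, SE 0.08, edgeR adjusted p = 0.0053). Nanog had 14.2, 12.7 and 18.5 CPM in RA shCdk8, against 20.6, 24.4 and 29.1 CPM in RA shNMC (log2 -0.71, SE 0.17, edgeR adjusted p = 0.012). Pou5f1 had 319.7, 289 and 402 CPM in RA shCdk8, against 412, 417 and 498 CPM in RA shNMC, close to the threshold (log2 -0.39, SE 0.12, edgeR adjusted p = 0.041). The Pou5f1 call was lost without any 1 of the libraries other than RA shCdk8 replicate 3 (adjusted p up to 0.24) and the Nanog call when RA shCdk8 replicate 1 or 2 or RA shNMC replicate 3 was (adjusted p up to 0.093), while that of Sox2 held through all 6 omissions.

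Sall4 had 188, 175 and 187 CPM in RA shCdk8, against 238, 222 and 199.6 CPM in RA shNMC, without overlap but also without a call (log2 -0.26, SE 0.10, edgeR adjusted p = 0.13). Utf1 had 18.8, 17.2 and 28.7 CPM in RA shCdk8, against 18.4, 16.5 and 19.5 CPM in RA shNMC (log2 0.25, SE 0.21, edgeR adjusted p = 0.54). The interaction of shCdk8 and RA passed for 0.0369% of tested genes and for none of the 5 with edgeR or DESeq2; 2 of them had an unadjusted p under 0.05. Its most negative values were -0.71 (SE 0.24) for Nanog and -0.33 (SE 0.11) for Sox2, with unadjusted p-values of 0.0067 and 0.0055 and an edgeR adjusted p of 1 for each; a greater RA response in shCdk8 cells is therefore not shown by this test.

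Set against each other, the 2 Mediator hairpins differed for the trio in LIF, where 35.8% of tested genes changed (18.4% rose and 17.4% fell). In shMed12 relative to shCdk8 mESCs, Sox2 differed by -0.85 on the log2 scale (SE 0.08, edgeR adjusted p = 1.4e-08), Nanog by -0.94 (SE 0.17, edgeR adjusted p = 0.00012) and Pou5f1 by -0.35 (SE 0.12, edgeR adjusted p = 0.024). After RA, where 41.4% of genes changed (21.3% rose and 20.1% fell), Sox2 had the largest difference of the 5 (log2 -1.27, SE 0.08, edgeR adjusted p = 8.2e-11), Utf1 was higher in RA shMed12 (0.93, SE 0.21, edgeR adjusted p = 0.0014), and Nanog stood at 14.8 ± 1.03 CPM in RA shMed12 and 15.1 ± 3.03 CPM in RA shCdk8 (SD, n = 3 each; edgeR adjusted p = 0.9). Pou5f1 was called there (log2 -0.31, edgeR adjusted p = 0.039) although its libraries overlapped. The Pou5f1 call was lost in LIF without shMed12 replicate 1 or 2 or shCdk8 replicate 3 (adjusted p up to 0.11), and after RA without the same replicates of RA shMed12 and RA shCdk8 (adjusted p up to 0.21).

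With Ring1b knockdown Sox2 was the 1 gene of the 5 called, in a comparison with untransfected cells in which 15.1% of tested genes changed (9.68% rose and 5.42% fell). Sox2 had 578, 568 and 632 CPM in shRing1b mESCs, against 746, 652 and 808 CPM in untransfected mESCs. The groups did not overlap, and the log2 change was -0.31 (SE 0.08, edgeR adjusted p = 0.0081). Without the library labelled shRing1b replicate 3 it was -0.36 (SE 0.08, edgeR adjusted p = 0.0021); without untransfected replicate 3 it was -0.24 and no longer passed (adjusted p = 0.063), and with only the 2 groups in the fit it did not pass either (adjusted p = 0.41). Against shNMC cells, which lie in the other set of libraries and where 20.2% of genes changed (12.9% rose and 7.36% fell), Sox2 differed by -0.44 (SE 0.08, edgeR adjusted p = 0.00039), and by -0.48 without shRing1b replicate 3.

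The shRing1b libraries had the highest coefficient of variation of all 8 groups for Nanog (28.3%), Sall4 (19.3%) and Utf1 (35.8%). Pou5f1 had 869, 923 and 786 CPM in shRing1b and 861, 1047 and 964 CPM in untransfected mESCs. Nanog had 60.5, 72.3 and 40.1 CPM in shRing1b and 54.7, 60.2 and 62.4 CPM in untransfected mESCs, and Sall4 had 323, 297 and 219 CPM in shRing1b and 315, 376 and 336 CPM in untransfected mESCs. Utf1 had 75.3, 63.7 and 123 CPM in shRing1b and 98.4, 117 and 72.1 CPM in untransfected mESCs. Replicate 3 was the lowest of its group for Nanog, Sall4 and Pou5f1 and the highest for Utf1 and Sox2. With every library the log2 differences from untransfected cells were -0.16 for Pou5f1, -0.04 for Nanog, -0.29 for Sall4 and -0.14 for Utf1 (edgeR adjusted p of 0.064 or higher). Without shRing1b replicate 3 they were -0.09 for Pou5f1, 0.17 for Nanog, -0.14 for Sall4 and -0.46 for Utf1 (edgeR adjusted p of 0.091 or higher), so that the sign for Nanog turned. Against shNMC cells the differences with every library were -0.08 for Pou5f1, -0.11 for Nanog, -0.07 for Sall4 and 0.07 for Utf1 (edgeR adjusted p of 0.66 or higher). Without shRing1b replicate 3 they were -0.02 for Pou5f1, 0.10 for Nanog, 0.08 for Sall4 and -0.26 for Utf1 (edgeR adjusted p of 0.35 or higher), with the signs for Nanog, Sall4 and Utf1 turned. None of these 4 genes passed the test in either comparison, with or without that library. Against untransfected cells 3900 genes were called in all without shRing1b replicate 3 and 1328 without untransfected replicate 3, beside 2459 with every library. Primitive and visceral endoderm markers, a list of 8, summed to 28.1 to 522 CPM across the shRing1b libraries and 53.7 to 75.2 CPM in untransfected libraries, with 1 of 8 called higher. Against shNMC cells, where the sum was 37.9 to 51.6 CPM, 7 of the 8 were called higher (median log2 change of 2.43). The shRing1b libraries did not share this rise, as their lowest sum, 28.1 CPM, lay below every shNMC library. In shRing1b Gata6 averaged 25 ± 27.6 CPM, Sox17 7.33 ± 8.55, Foxa2 2.9 ± 3.5 and Dab2 131 ± 174 (SD, n = 3 each). With only the groups compared in the fit, 8 genes in all were called against shNMC cells. Of 9 trophectoderm markers 7 rose, to a sum of 52.9 to 114 CPM in shRing1b libraries, against 20.5 to 30.8 CPM in untransfected libraries. Against shNMC cells, with a sum of 20.7 to 25.3 CPM, 7 of the 9 rose as well. Over all tested genes 9.68% rose against untransfected cells and 12.9% against shNMC cells. The part of either marker list in the Sox2 values was not tested, and the list calls were not recomputed without shRing1b replicate 3.

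Carrying the non-targeting hairpin made no called difference. The log2 values of shNMC against untransfected mESCs were -0.07 for Pou5f1, 0.08 for Nanog, 0.13 for Sox2, -0.22 for Sall4 and -0.20 for Utf1, all with an edgeR adjusted p of 1, in a comparison where 0.00614% of genes were called; DESeq2 called none of the 5 either. Sall4, at 288, 314 and 279.7 CPM in shNMC and 315, 376 and 336 CPM in untransfected mESCs, had the 1 unadjusted p under 0.05 (0.048) and was the one gene of the 5 whose libraries did not overlap.

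Across the 8 groups, the order of mean levels differed between the genes. For Pou5f1 it ran, from the low end, RA shMed12 (272 ± 31.1 CPM), RA shCdk8, RA shNMC, shMed12, shCdk8, shRing1b, shNMC and untransfected (957 ± 93.0 CPM; SD, n = 3 each). Libraries of neighbouring groups overlapped between the lowest 2 and among the highest 4 of these groups. Nanog had the same lowest 4 groups in the same order, with shCdk8, shNMC, untransfected and shRing1b overlapping at the top. For Sox2, RA shNMC stood above shMed12 in LIF, and from RA shMed12 up to untransfected cells each group's libraries were apart from those of the next. Sall4 was lowest in RA shCdk8 (183 ± 7.39 CPM) and highest in untransfected cells (342 ± 31.1 CPM), and Utf1 was lowest in RA shNMC (18.1 ± 1.54 CPM) and highest in shMed12 (104 ± 17.1 CPM; SD, n = 3 each), with overlap among all 5 mESC neighbours.

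Ratios between members within a library, which do not depend on the scaling of libraries, restated the differences between the changes of single genes. The log2 ratio of Utf1 to Pou5f1 reads was -2.67, -2.73 and -2.77 in RA shMed12, against -4.48, -4.66 and -4.68 in RA shNMC. In LIF it was -2.53, -2.78 and -2.59 in shMed12, against -3.40, -3.60 and -3.38 in shNMC. The shMed12 libraries were thus apart from the shNMC libraries in both states, by 1.88 after RA and 0.83 in LIF, and RA moved the ratio by -0.09 within shMed12 cells and by -1.15 within shNMC cells. With 3 libraries against 3 the exact two-sided permutation test cannot go below p = 0.1, which is the value both hairpin contrasts gave (adjusted p = 0.2 over 32 ratio comparisons, the lowest adjusted value of all 32).

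The log2 ratio of Sox2 to Pou5f1 was -0.72, -0.88 and -0.90 in RA shMed12, against 0.16, 0.21 and -0.08 in RA shNMC, a difference of -0.93. In LIF the means were -0.54 ± 0.19 in shMed12 and -0.18 ± 0.10 in shNMC (SD, n = 3 each). After RA every shMed12 library had a lower ratio than every shNMC library (exact permutation p = 0.1, adjusted p = 0.2). Sall4 was higher relative to Pou5f1 after RA: its mean log2 ratio was -0.33 ± 0.16 in RA shMed12 and -1.27 ± 0.12 in shMed12 mESCs, and -1.01 ± 0.28 in RA shNMC and -1.63 ± 0.10 in shNMC mESCs (SD, n = 3 each). Nanog to Pou5f1 overlapped between shMed12 and shNMC in both states.

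**Figure D3:**
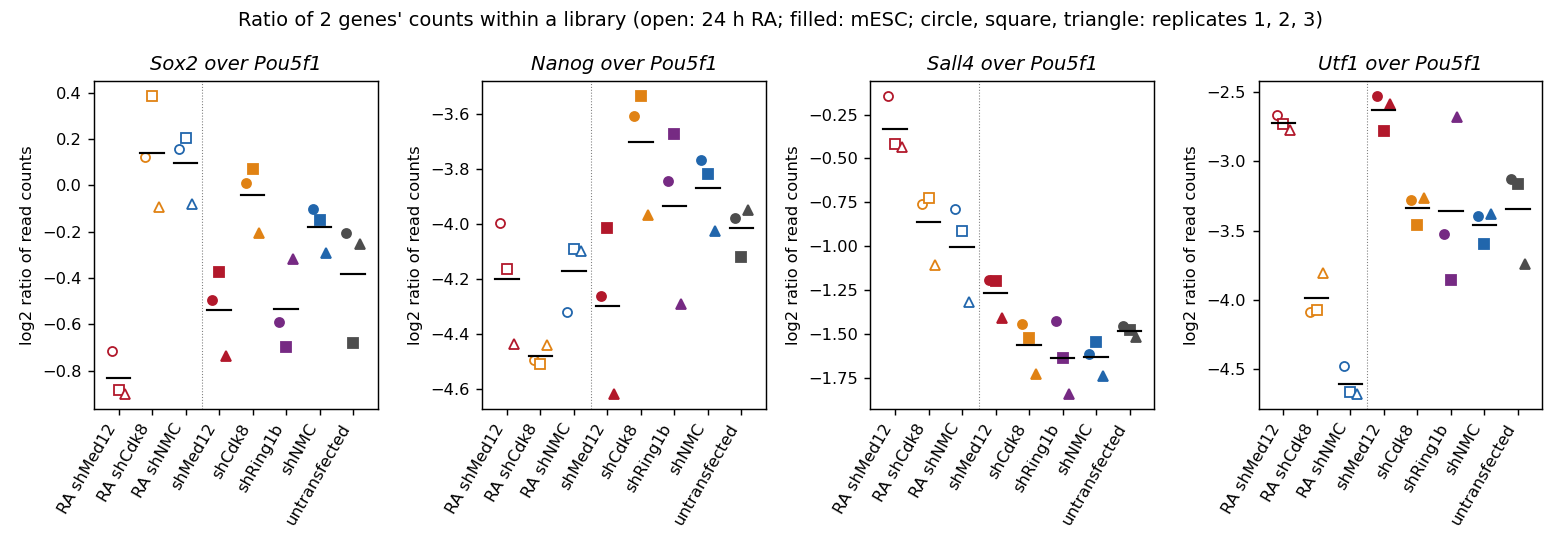
Log2 ratio of the read counts of Sox2, Nanog, Sall4 and Utf1 to those of Pou5f1 within each library (y axes), by group, with a line at the mean of 3 libraries. RA shMed12 is lowest for Sox2 over Pou5f1 (mean -0.83), and for Utf1 over Pou5f1 the RA shMed12 libraries (mean -2.72) stay near shMed12 mESCs (mean -2.63) while RA shNMC lies at -4.61.

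Over the 8 group means of log2 CPM, a description over 8 points that share their libraries' depth and composition, Pearson's r was 0.98 for Pou5f1 with Nanog and 0.90 for Pou5f1 with Sox2, and lowest for Sox2 with Utf1 at 0.47. Among 9905 named genes of at least 10 CPM in a group mean, the profile closest to Pou5f1 was that of Zfp42 (r = 0.997), which encodes the stem cell marker REX1, followed by Zfp710 (0.996) and Krr1 (0.993). Closest to Nanog were Adi1, Qtrt1 and Lgals3 (0.993, 0.993 and 0.992). Closest to Sox2 were Slc25a25 (0.998), Rinl and Mthfd1l (both 0.990), to Sall4 Set (0.994), Asna1 and Dpf1 (both 0.989), and to Utf1 St13 (0.998), Wdr73 and Ino80e (both 0.996). Over the 24 libraries instead, Zfp42 and Esrrb led for both Pou5f1 (0.989 and 0.987) and Nanog (0.975 each), and Set and Asna1 again led for Sall4 (0.949 and 0.947). For Sox2 the closest 3 were then all different genes, Lrrc2 (0.964), Tcl1 (0.962) and Ildr1 (0.960), and for Utf1 they were Mri1 (0.966), Adam19 (0.965) and, as before, Wdr73 (0.962).

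Known targets of OCT4 and SOX2, a list of 10, shared the direction of the trio in part. With RA in shNMC cells 5 fell and 1 rose. The share called in either direction, 6 of 10, is near the 51.4% of all tested genes. By direction, 24.1% of all tested genes fell and 27.3% rose. The median log2 change of the list with RA was -0.60, beside 0.022 over all genes tested. With shMed12, 6 fell in LIF and 7 after RA with 0 rising, where 19.9% and 20.6% of all tested genes fell. With shCdk8 in LIF 0 were called by edgeR, which called 3.66% of all tested genes (3 had an unadjusted p under 0.05, and DESeq2 called 1). After RA 4 fell with shCdk8, where 3.64% of all tested genes fell. The median log2 change of the list with shMed12 was -0.36 in LIF and -0.67 after RA, beside -0.013 and -0.004 over all genes tested. Fgf4, whose enhancer is a classical composite target and which encodes a growth factor that primes differentiation, averaged 50.8 ± 1.73 CPM in RA shMed12, 62.0 ± 15.9 in RA shCdk8 and 160.0 ± 26.1 in RA shNMC, and 222 ± 14.9 in shMed12, 349 ± 17.0 in shCdk8 and 432 ± 7.43 in shNMC mESCs (SD, n = 3 each). Zfp42 averaged 64.2 ± 3.64 CPM in RA shMed12 and 155 ± 9.74 in RA shNMC, and 296 ± 20.2 in shMed12 and 577 ± 52.4 in shNMC mESCs (SD, n = 3 each). Against the direction of the 5 that fell, Lefty1, an inhibitor of Nodal signalling, was higher with RA, at 469 ± 15.4 CPM in RA shNMC and 82.1 ± 22.3 CPM in shNMC mESCs (log2 2.51, SE 0.32, edgeR adjusted p = 1.5e-06; SD, n = 3 each).

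Of 18 partner transcription factors of the network, 13 fell and 0 rose with RA in shNMC cells, where 24.1% of all tested genes fell. With shMed12, 11 fell and 0 rose in each state, where 19.9% of all tested genes fell in LIF and 20.6% after RA. With shCdk8 in LIF 0 were called by edgeR or DESeq2 (2 had an unadjusted p under 0.05). Over all tested genes edgeR called 3.66% there. After RA 7 fell and 1 rose with shCdk8, where 3.64% of all tested genes fell and 4.1% rose. The median log2 change of the list was -0.55 with shMed12 in LIF, beside -0.013 over all genes. Prdm14, which represses differentiation genes in naive cells, was down to 8.48 ± 0.604 CPM in shMed12, against 44.3 ± 1.13 CPM in shNMC mESCs (log2 -2.39, SE 0.17, edgeR adjusted p = 4.7e-10; SD, n = 3 each). Klf4, a naive-state factor downstream of LIF, averaged 50.9 ± 3.4 CPM in shMed12 and 182 ± 6.99 CPM in shNMC mESCs (log2 -1.84; SD, n = 3 each), and Stat3, the transducer of the LIF signal, 89.5 ± 8.32 and 178 ± 1.98 CPM in the same order (log2 -0.99). Otx2, a factor of the formative state, shared the sign of the Sox2 interaction (-3.52, SE 0.53, edgeR adjusted p = 0.00037), whereas Prdm14 (1.01, SE 0.24, edgeR adjusted p = 0.015) and Stat3 (0.43, SE 0.11, edgeR adjusted p = 0.03) had the other sign.

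**Figure D4:**
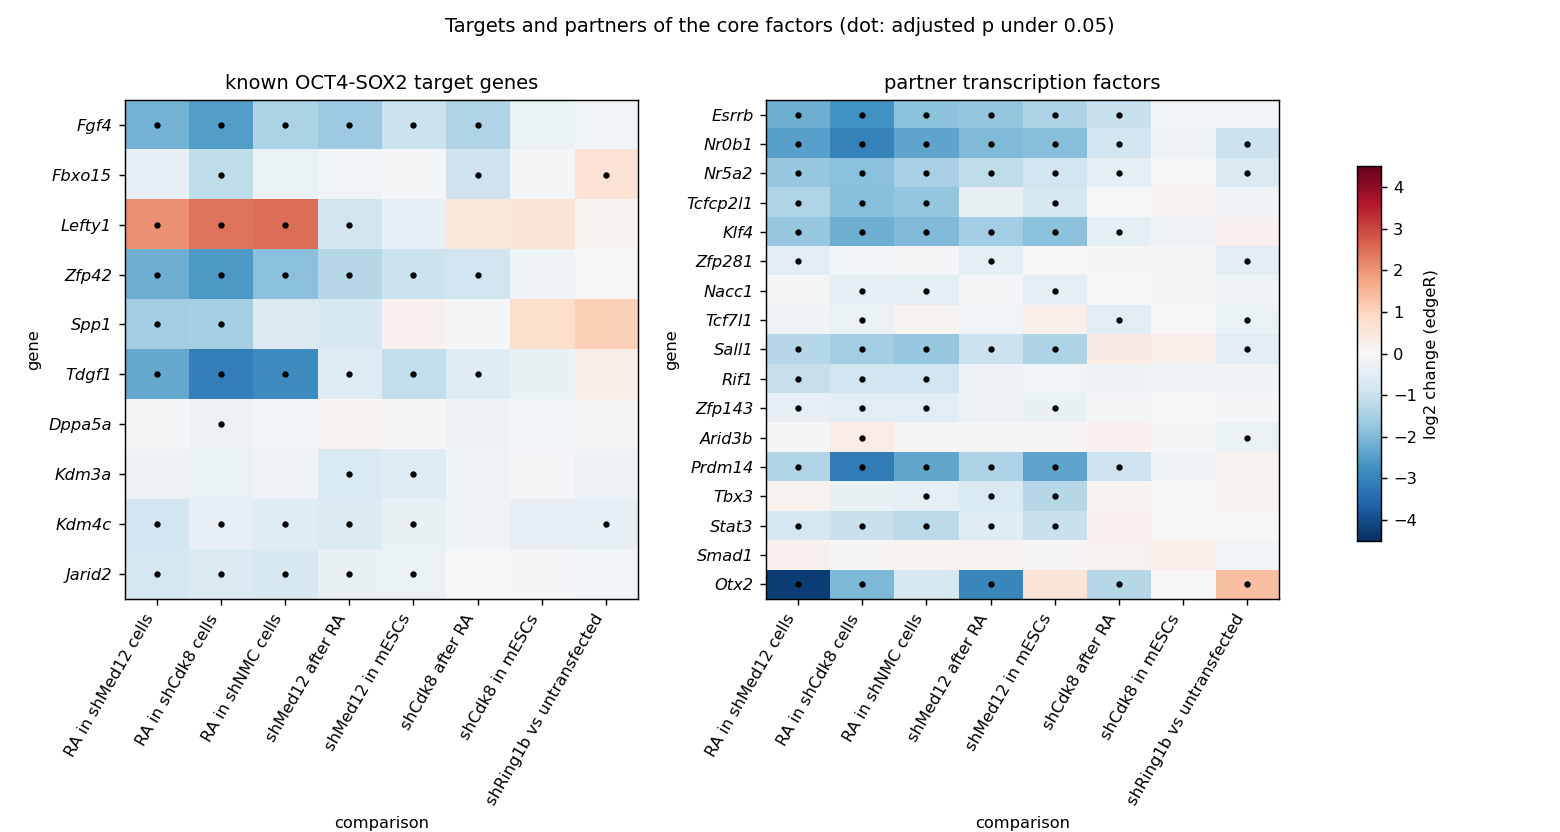
Colour gives the edgeR log2 change of each of the 10 targets (left) and of 17 of the 18 partners (right) in 8 comparisons, with a dot where the adjusted p was under 0.05. The column for shCdk8 in mESCs holds no dot, and among the partners shown the column for shMed12 after RA holds 10 dots and that for shMed12 in mESCs 11.

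NuRD and BAF subunits and other chromatin partners of OCT4, SALL4 and NANOG formed a list of 20. It moved in both directions with shMed12. With RA in shNMC cells 11 fell and 0 rose, with a median log2 change of -0.28 beside 0.022 over all genes. The share called in either direction, 11 of 20, is near the 51.4% of all tested genes. By direction it is not, as all 11 fell, where 24.1% of all tested genes fell and 27.3% rose. The lowest p was that of Wdr5, a subunit of histone H3 lysine methyltransferase complexes that is known to bind OCT4. Wdr5 stood at 219 ± 2.43 CPM in RA shNMC and 457 ± 15.8 CPM in shNMC mESCs (SD, n = 3 each), a log2 change of -1.06. With shMed12 in LIF 5 fell and 2 rose (median -0.14), with 40.5% of all tested genes called, and after RA 2 fell and 6 rose (median 0.03), with 41.9% called. These 7 and 8 of 20 are near the share over all genes. Rbbp7, a histone-binding NuRD subunit, was higher with shMed12 in both states (log2 0.78 in LIF and 1.04 after RA). Hdac2, a NuRD deacetylase, was lower (-0.59 and -0.62).

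Relatives of the members did not move as 1 group. Of 22 POU, SOX and SALL genes 21 were tested. With shMed12 in LIF 5 rose and 9 fell (median log2 change -0.57), where 20.6% of all tested genes rose and 19.9% fell. After RA 4 rose and 7 fell with shMed12 (median -0.38), where 21.3% of all tested genes rose and 20.6% fell. Sox1, like Sox2 a SOXB1 factor of neural progenitors, averaged 0.717 ± 0.128 CPM in shMed12 and 6.88 ± 0.612 CPM in shNMC mESCs (log2 -3.25), while Pou3f1, a POU factor of the epiblast and neural lineage, averaged 14.9 ± 1.88 and 3.96 ± 0.451 CPM in the same order (log2 1.91; SD, n = 3 each). Sox3, the third SOXB1 gene, was higher with RA, at 10.8 ± 2.22 CPM in RA shNMC and 1.54 ± 0.213 CPM in shNMC mESCs (log2 2.80; SD, n = 3 each). Sall1, also counted among the partners, was lower too, at 146 ± 25.5 CPM in shMed12 and 388 ± 11.2 CPM in shNMC mESCs (log2 -1.40; SD, n = 3 each).

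Sox2ot, the long noncoding RNA whose gene spans Sox2, was also lower with shMed12. It had 1.75, 2.44 and 2.07 CPM in shMed12, against 4.3, 4.64 and 4.06 CPM in shNMC mESCs (log2 -1.05, SE 0.28, edgeR adjusted p = 0.0051), and 1.33, 1.05 and 2.03 CPM in RA shMed12, against 3.22, 3.48 and 4.38 CPM in RA shNMC (log2 -1.33, SE 0.29, edgeR adjusted p = 0.00082). RA with LIF withdrawal gave no call for Sox2ot in shNMC cells (log2 -0.23, edgeR adjusted p = 0.5). Whether reads could be shared between Sox2 and the transcript around it was not tested. Nanogpd, listed as a separate symbol and named as a Nanog pseudogene, had 0 reads in all 24 libraries, which allows up to 0.0523 to 0.109 CPM per library by a floor of 3 reads for counting error only.

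Markers of other cell types moved beside the fall of the trio in shMed12 cells. Over all tested genes 20.6% rose and 19.9% fell with shMed12 in LIF, and 21.3% rose and 20.6% fell after RA. Of 9 trophectoderm markers 8 rose and 0 fell with shMed12 in each state, and their sum was 572 to 743 CPM in shMed12 and 20.7 to 25.3 CPM in shNMC mESCs, and 690.4 to 909 CPM in RA shMed12 and 36.0 to 49.1 CPM in RA shNMC. Krt18, a keratin of simple epithelia, made up most of it, at 388 ± 52.1 CPM in shMed12 and 11.2 ± 1.95 CPM in shNMC mESCs (SD, n = 3 each), while Cdx2, the defining trophectoderm factor, averaged 5.56 ± 2.67 CPM in shMed12 mESCs (SD, n = 3) and Elf5 stayed under 1 CPM in every group. Of 7 fibroblast markers, 6 of them tested, 5 rose and 1 fell with shMed12 in LIF, to a sum of 22.5 to 23.3 CPM, against 8.47 to 8.83 CPM in shNMC mESCs, with Postn, Lum and Dcn under 1 CPM. Of 6 primitive streak markers 4 rose and 0 fell (26.5 to 52.4 CPM in shMed12 and 6.98 to 7.74 CPM in shNMC mESCs), and of 8 endoderm markers 0 rose and 3 fell (28.6 to 34.2 CPM in shMed12 and 37.9 to 51.6 CPM in shNMC mESCs). The part of these cells or genes in the levels of Pou5f1, Nanog, Sox2 and Utf1 was not tested. With shCdk8 in LIF 0 trophectoderm markers were called by edgeR or DESeq2 (1 had an unadjusted p under 0.05), and their sum was 26.9 to 27.6 CPM in shCdk8 and 20.7 to 25.3 CPM in shNMC mESCs.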

How the data were processed

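Poly(A) RNA was sequenced as 50-base strand-specific reads, per the labels' protocols. The deposited files hold raw counts per gene for each library, and the submitters' processing notes name bcl2fastq 1.8.4, STAR 2.3.1z13, SAMtools 1.2, HTSeq 0.6.1p1, DESeq2 1.6.3 and the mm9 build; which gene models were used, and whether strand was counted, is not given in the sources used here. Reads with several alignments were set aside by the counter, per the 5 summary entries of each file, which were left out of library sizes, so a gene with near-identical copies may be undercounted.

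Genes with too few counts were removed by edgeR's filterByExpr, leaving 16280 of 22609. All 24 libraries were fitted with edgeR 4.0.16 (R 4.3.3, limma 3.58.1; TMM scaling, quasi-likelihood F test, robust, 16 residual degrees of freedom), two-sided, with Benjamini-Hochberg adjustment over all genes of a comparison and a threshold of 0.05. The analysis was tested on simulated counts for the shMed12 comparison in LIF, with equal spread in every group. The wider spread between the shRing1b libraries was not part of that simulation. CPM use TMM-scaled library sizes; exon lengths are GENCODE M21 exon unions. "Rose", "fell" and "called" mean past the threshold. Members and gene lists were chosen with earlier results of these data known. Named genes are the members, the hairpin targets, up to 4 called genes per list and comparison with the lowest p, the 3 most correlated genes per member, Sox2ot and Nanogpd; the markers of the label check, those named as under 1 CPM, Cdx2 and the closest genes over 24 libraries were named after their values were seen. Some listed genes are counted but not reported here by name. All 109 list genes were found, Tfcp2l1 and Tfap2a under older symbols.

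Libraries with the same replicate number deviated together in 3 comparisons: shCdk8 against shNMC after RA (correlations 0.475, 0.287 and 0.537), RA in shCdk8 cells (0.358, 0.169 and 0.371) and shMed12 against shCdk8 in LIF (0.195, 0.157 and 0.339). So did RA shNMC with shMed12 mESCs (0.29, 0.158 and 0.373) and with shCdk8 mESCs (0.356, 0.143 and 0.41), groups that enter the interaction terms. RA shCdk8 with shMed12 mESCs did too (0.284, 0.185 and 0.356). The labels do not say what the number marks. Within each group, any pair of libraries differed by more than read sampling noise (mean chi-square per gene of 7.5 or more), so none was treated as a repeat deposit of another; this does not show separate cultures. Alternatives were RLE scaling, DESeq2 1.42.0, no low-count filter, a replicate block, only the groups compared, and leaving out each library.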

Additional observations from a re-analysis of the deposited data

Results flagged for a closer look

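The RA response of Sox2 differed between shMed12 and shNMC cells by the test of the difference itself. The interaction was -0.75 on the log2 scale (SE 0.11, edgeR adjusted p = 0.00019), with a log2 change by RA of -1.53 in shMed12 cells and -0.77 in shNMC cells (3 libraries per group). Every RA shMed12 library lay below every other library of the series for Sox2, and the interaction stayed between -0.81 and -0.76, with adjusted p-values of 0.00017 to 0.00084, when any of the 12 libraries was left out.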

How the results depend on the processing

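For the 5 genes over 14 comparisons, 342 of 350 values under alternatives other than omissions stayed on their side of the threshold. Of the others 3 lost the call and 5 gained it, and 0 values with a call reversed. Of 480 omissions of 1 library, 459 stayed on their side, 19 lost the call and 2 gained it. Direction was compared only where a value was called, so uncalled values that changed sign, as with shRing1b, count as having stayed. All 224 recomputed ratios moved by less than the spread, and 14 of 40 group levels moved by more than 1 SD with raw library totals. The cause of these changes was not tested.

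With only the groups compared in the fit, which changes the estimate of spread, shCdk8 gave 2334 calls in LIF (596 with all groups) and 2744 after RA (1259), shRing1b gave 0 against untransfected (2459) and 8 against shNMC (3294), shNMC against untransfected gave 0 (1), and the interactions gave 2237 for shMed12 (820) and 38 for shCdk8 (6). That fit gained Utf1 with shMed12 in LIF (0.33, adjusted p = 0.022), against shCdk8 in LIF (0.37, 0.031) and in the shMed12 interaction (0.82, 0.0027), and Sall4 for shMed12 against shCdk8 after RA (0.23, 0.014). It lost Pou5f1 with shCdk8 after RA (-0.39, 0.064) and Sox2 with shRing1b against untransfected (-0.29, 0.41) and against shNMC (-0.41, 0.079). DESeq2 gave 1151 calls for shCdk8 in LIF, 1245 for the shMed12 interaction and 27 for the shCdk8 interaction.

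The replicate block gave 905 calls for shCdk8 in LIF and 11 for the shCdk8 interaction, and gained Sall4 for shRing1b against untransfected (-0.30, adjusted p = 0.043); it changed no other call of the 5 genes (69 of 70 kept).

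Omitting a library gave 170 to 282 calls for shCdk8 in LIF, 482 to 922 for shCdk8 after RA, 1328 to 3900 for shRing1b against untransfected, 2015 to 4678 against shNMC, 489 to 830 for the shMed12 interaction and 3 to 6 for the shCdk8 interaction. Log2 changes ranged from -0.33 to -0.28 for Sall4 with RA in shMed12 cells, -0.54 to -0.29 for Pou5f1 and -0.87 to -0.58 for Nanog with shCdk8 after RA, -0.39 to -0.24 for Sox2 and -0.41 to -0.14 for Sall4 with shRing1b against untransfected, and -0.43 to -0.28 in LIF and -0.41 to -0.19 after RA for Pou5f1 with shMed12 against shCdk8. Sall4 in shRing1b passed without untransfected replicate 1 (adjusted p = 0.048) or shRing1b replicate 1 (0.014).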
